A study of Mus musculus with 6 samples.

Results

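The genes described here are the MAPK phosphatases and receptor-tyrosine-kinase feedback inhibitors of the mouse. They are the 34 protein-coding genes whose symbol is Dusp and digits (24 genes), Spry and a digit (4), Spred and a digit (3), or Errfi1, Lrig1 or Lrig3, out of 21887 protein-coding genes on the main chromosomes. A peak summit, the 1 base a peak caller reports as the top of an enriched region, was assigned to the gene with the nearest start or end within 50 kb. The label of the set holds only in part, because 14 of the 24 Dusp genes encode atypical dual-specificity phosphatases, several of which are known for substrates other than MAP kinases.

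The study mapped the coactivator YAP and the active-chromatin mark H3K27ac by chromatin immunoprecipitation sequencing in gastric corpus epithelium of mice. The normal group was WT, with 1 H3K27ac and 2 YAP libraries. The YAP-activated gastric cancer group had the genotype CluCreERT2;R26rtTA;HA-Yap+, again with 1 H3K27ac and 2 YAP libraries. Here the Cre is made from the Clu locus, so recombination is limited to cells with Clu activity and their descendants, and HA-Yap is an induced transgene product beside the endogenous protein. Mice of both groups, per the labels, were given tamoxifen (2 mg, 5 days) followed by 14 days of doxycycline-containing food, and no age is given. The cells were freed from the corpus with EDTA and not cultured. Nothing in the labels ties a library to a separate animal, so p-values over libraries may measure technical spread only.

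Whole-list facts that bear on the genes are few. The 4 YAP lists differed in length, with 1654 main-chromosome summits in normal 1, 2141 in normal 2, 38268 in tumor 1 and 53904 in tumor 2, each library being called by its label. The H3K27ac lists held 22574 (normal) and 66896 (tumor) summits, and sequencing depth is unknown. Peak names of normal 2 carry the word found in the tumor H3K27ac list, and those of tumor 1 carry the word found in the normal H3K27ac list, so each direction between YAP groups rests on labels that the names of 2 libraries go against. Of 13 gastric epithelial marker genes, 11 had a normal H3K27ac summit within 1 kb of their start or end and 9 had a tumor one. Epcam, Cdh1, Krt8, Krt18, Tff1, Pgc, Atp4a and Atp4b were marked in both. Muc5ac, Gkn1 and Cblif were marked in normal only, Muc6 in tumor only and Tff2 in neither. Of 13 markers of immune, stromal, endothelial and nerve cells, 4 were marked in normal (Ptprc, Col1a1, Col3a1, Acta2) and 3 in tumor (Col1a1, Des, Sox10), with both endothelial genes unmarked, and their part in the results was not tested. In such bulk samples, fewer cells of a type and less mark per cell cannot be told apart.

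Growth factor receptors signal through Ras, Raf and MEK to the MAP kinase ERK, and ERK activity induces its own inhibitors. Errfi1 (also Mig6) blocks the EGF receptor kinase, and Lrig1, a membrane protein, promotes the loss of such receptors from the cell. Sprouty and Spred proteins restrain the step between receptor and Raf, and dual-specificity phosphatases remove the activating phosphates from ERK, JNK or p38. In the stomach, EGF receptor ligands and this pathway govern epithelial growth and repair.

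A YAP site below means a summit of tumor 1 and a summit of tumor 2 within 200 bp of each other, placed at their midpoint. RefSeq promoters (GRCm38.p6, 250 bases before to 50 after a transcription start) were found for 26 of the 34 genes, with 30 starts, and Dusp4, Dusp9, Dusp15, Dusp19, Dusp21, Dusp26, Spry3 and Spry4 were not among them. Of the 30 promoters, 12, at 11 genes, held a YAP site inside the window, against 18.7% of all 32851 promoters, and 18, at 17 genes, held one in it or within 250 bp, against 31.3% of all promoters. Each promoter was searched on both strands for 4 motifs: GGAATG of the TEAD factors that bring YAP to DNA, TGANTCA of AP-1, TGACGT of the CRE bound by CREB and ATF factors, and CGGAAGT of ETS factors. A match to one of them and a YAP site in or within 250 bp of the promoter occurred together at Dusp1, Dusp5, Dusp8, Errfi1, Spred2 and Spry1, whose sequences are shown 5′ to 3′ for that reason. For Dusp1, Dusp5, Spred2 and Spry1 these are the 250 bases before the start. For Dusp8 and the inner start of Errfi1, where those bases fall inside the gene's own span, 30 bases around each TGACGTCA are given. Capitals mark TGACGT on either strand, the TEAD letters in Spry1, and in Dusp5 also 2 CArG boxes, the element of serum response factor.
Dusp1 (chr17:26508473-26508722, minus strand): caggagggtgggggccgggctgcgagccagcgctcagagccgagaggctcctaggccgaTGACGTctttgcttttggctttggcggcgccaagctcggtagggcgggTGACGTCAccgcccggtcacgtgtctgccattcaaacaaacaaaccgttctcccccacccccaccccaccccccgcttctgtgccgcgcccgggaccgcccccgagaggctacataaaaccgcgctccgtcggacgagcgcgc
Dusp5 (chr19:53528895-53529144, plus strand): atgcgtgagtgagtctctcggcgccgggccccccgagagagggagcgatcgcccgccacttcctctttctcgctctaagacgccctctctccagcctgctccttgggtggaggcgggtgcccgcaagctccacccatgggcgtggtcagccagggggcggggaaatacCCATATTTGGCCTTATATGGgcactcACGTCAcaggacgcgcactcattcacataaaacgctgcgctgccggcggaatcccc
Spred2 (chr11:19924192-19924441, plus strand): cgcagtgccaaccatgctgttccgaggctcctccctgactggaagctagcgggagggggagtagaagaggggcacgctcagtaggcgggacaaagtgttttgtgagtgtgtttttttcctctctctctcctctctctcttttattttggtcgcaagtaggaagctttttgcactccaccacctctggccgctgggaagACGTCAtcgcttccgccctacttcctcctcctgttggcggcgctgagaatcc
Spry1 (chr3:37639697-37639946, plus strand): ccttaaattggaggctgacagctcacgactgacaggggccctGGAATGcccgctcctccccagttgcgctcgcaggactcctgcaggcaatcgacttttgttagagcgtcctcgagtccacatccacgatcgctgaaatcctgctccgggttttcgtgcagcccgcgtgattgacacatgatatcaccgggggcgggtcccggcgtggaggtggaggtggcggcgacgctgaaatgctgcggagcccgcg
Dusp8 (chr7:142095373-142095402, minus strand): gcccgctccgcTGACGTCAcctgcccccga
Dusp8 (chr7:142095329-142095358, minus strand): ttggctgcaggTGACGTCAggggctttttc
Errfi1 (chr4:150855008-150855037, plus strand): gctgcgggcgtTGACGTCAcgttgtcgctc

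At Dusp1 the YAP site lay 132 bases before the start, 6 and 8 bases from the 2 overlapping matches, 1 on each strand, that make TGACGTCA. A further match there lay 56 bases from the site. The Dusp8 promoter held TGACGTCA at 2 places, with the YAP site 5 bases before the start and 53 to 99 bases from them. At the inner start of Errfi1 the site lay 2 bases before the start and 44 and 46 bases from the matches. The Dusp5 site lay 20 bases before the start and 33 bases from its single match. At Spred2 the distance between site and match was 223 bases, and at Spry1 the site lay 93 bases from GGAATG. The outer start of Errfi1 held GGAATG 107 bases from a low-scored site, and its letters are not shown.

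TGACGT was present in 5 of the 30 promoters (16.7%) and in 7.51% of all promoters. All 5 were among the 18 with a YAP site in or within 250 bp, and of all 10271 promoters with such a site 12.9% held the letters. GGAATG was present in 5 of 30 (16.7%, all promoters 14.7%), 2 of them among the 18. TGANTCA was present in 1 of 30, at an upstream start of Dusp13 (all promoters 7.81%), and CGGAAGT in 0 of 30 (all promoters 6.42%). A match describes letters only and names no bound factor.

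YAP sites of both tumor libraries were found at 28 of the 34 genes (82.4%), against a background of 60.0% of all protein-coding genes. The 28 genes held 58 sites: 11 genes had 1 site, 9 had 2, 4 had 3, 3 had 4 and Spred2 had 5. Genes with 3 or more sites were 8 of 34 (23.5%, background 13.3%). Of the 27 members with H3K27ac within 1 kb of their start or end in either library, 24 had a site (88.9%), against 76.2% of all such genes, and of the 7 other members 4 had a site (57.1%), against 28.4%. The 58 sites came to 2.66 per 100 kb of assigned sequence over 33 genes, against 1.89 over all genes, and the assigned length had a median of 58.7 kb for the members and 46.4 kb for all genes. No list test was made, since the genes were chosen with results known. The 6 genes without a site were Dusp15, Dusp21, Dusp22, Dusp23, Dusp27 and Spry3. Spry3 could not receive a summit, as the gene table puts it at 101352 to 110912 on chromosome X and the first X summit of any list was at 3050356.

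**Figure D1:**
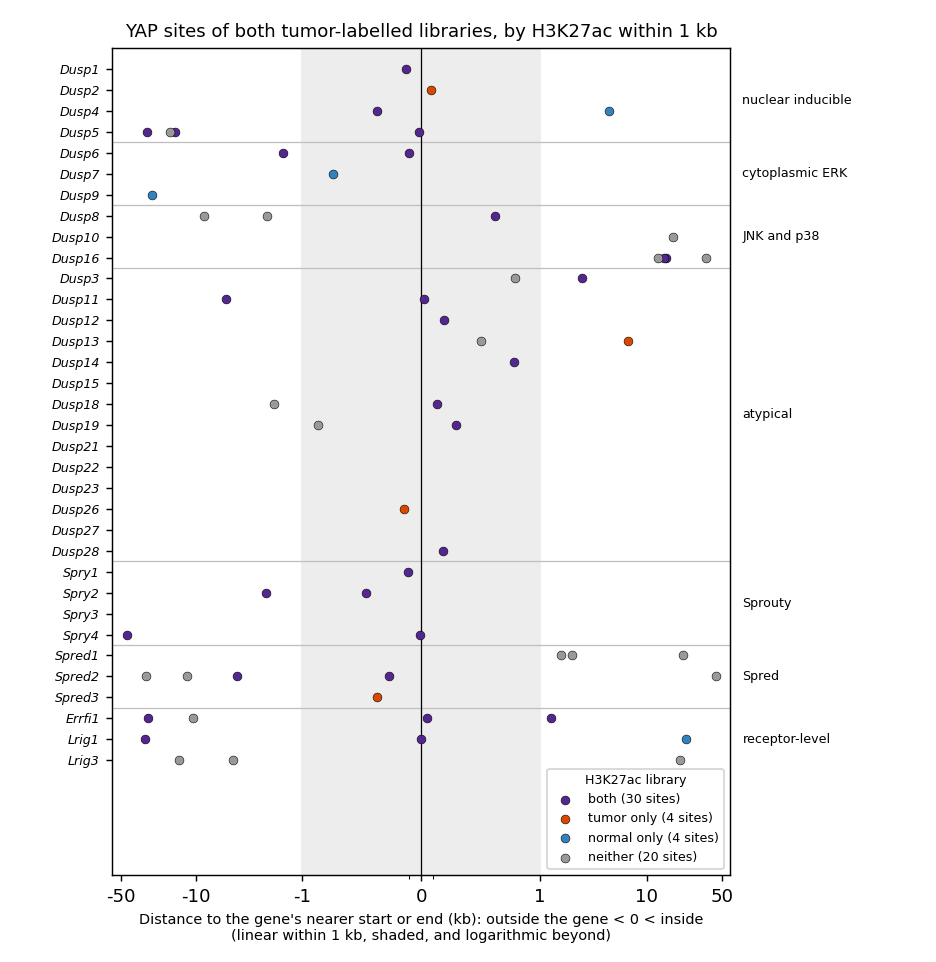
Each point is 1 of the 58 YAP sites of both libraries labelled tumor, by gene (rows, grouped by role) and by distance to the gene's nearer start or end in kb (negative outside the gene, positive inside, linear within 1 kb and logarithmic beyond). Colour gives the H3K27ac libraries with a summit within 1 kb: 24 sites lie in the shaded 1 kb, most of them with the mark in both libraries, while the 20 sites with the mark in neither lie mostly outside it.

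The 3 receptor-level genes held 10 sites on 376 kb of assigned sequence, or 2.66 per 100 kb, the same density as over all members. Errfi1 (chr4:150853796-150868889) had 0 and 0 YAP summits in normal 1 and normal 2, and 5 and 8 in tumor 1 and tumor 2. Its best site, at position 150855068, had deposited scores of 21.8 and 46.7, the caller's −log10 of p or q, and ranked 3658 in tumor 1 and 1246 in tumor 2. It was the 1 site of the 58 in the best 10% of both lists, where 11.5% of all gene-assigned sites fell, so 1 member (2.94%) had such a site, against 12.6% of all genes. The site lay inside the gene 1272 bp from its start, at the inner start described above, and 119 bp from a start of 1700045H11Rik. Its other sites lay 45 bp inside, 10472 bp outside and 28113 bp outside the gene. The first scored 3.67 and 5.12, and the second scored 2.13 in tumor 1 but 24.02 in tumor 2.

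Lrig1 (chr6:94604529-94700298), also a marker of epithelial stem cells, had 0 and 0 normal and 6 and 11 tumor summits. Its 3 sites lay 2 bp from the gene's promoter-side end, 29765 bp upstream of it and 23067 bp inside the gene. The first ranked within the best 20.5% of tumor 1 and 9.21% of tumor 2. The distal upstream site ranked at 16.2% and 18.1% and had H3K27ac summits of both libraries within 236 bp. Lrig3, a relative of Lrig1, had 0 and 0 normal and 6 and 6 tumor summits. All 3 of its sites lacked H3K27ac within 1 kb in both libraries and none lay within 1 kb of its start or end. Its best summits, at 9.32% of tumor 1 and 19.7% of tumor 2, were not part of these sites. The gene's start or end itself had an H3K27ac summit at 233 bp (normal) and 216 bp (tumor). At all 3 genes of this group the tumor libraries were above both normal libraries, as at 61.4% of all genes.

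Each of the 3 Sprouty genes that could be assigned summits had a site within 1 kb of its start or end, as did 41.4% of all genes. Spry2 (chr14:105891947-105896819) had 0 and 0 normal and 4 and 3 tumor summits, with sites 462 and 2182 bp before its start. The nearer site had scores of 19.2 and 24.5 and ranked at 12.9% and 14.2%. Spry1 (chr3:37639947-37644599) had 0 and 0 normal and 2 and 4 tumor summits, with 1 site 112 bp before its start at ranks of 16.0% and 14.3%. Spry4 had 0 and 0 normal and 2 and 2 tumor summits, with a site 11 bp outside the gene, which is also 259 bp from the start or end of Arhgap26, and one 43687 bp away. All 5 Sprouty sites had H3K27ac of both libraries within 1 kb, as did 44.9% of all gene-assigned sites.

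Spred proteins recruit neurofibromin, a Ras GTPase activator, and their 3 genes held 9 sites, 3 of them with tumor H3K27ac within 1 kb. Spred2 (chr11:19924442-20024026) had 0 and 0 normal and 6 and 10 tumor summits. Its 5 sites lay 272, 4095, 12085 and 28805 bp before the start and 44556 bp from the nearer end inside the gene, and the 2 nearest to the start had H3K27ac within 1 kb in both libraries. Spred1 (chr2:117121071-117182279) had 0 and 1 normal and 4 and 7 tumor summits, and none of its 3 sites had H3K27ac within 1 kb. Its best site, at ranks of 20.8% and 17.98%, lay 1576 bp inside the gene's far end and 52958 bp from the nearest tumor H3K27ac summit. Spred3 had 0 and 0 normal and 1 and 3 tumor summits. Its 1 site scored 4.16 and 4.86 and lay inside Ggn, 232 bp from a start of that gene.

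The inducible nuclear MAPK phosphatases, which are transcribed within minutes of ERK or stress signalling, all had a site within 1 kb of the gene's start or end. Such a site was found at 41.4% of all genes. Dusp5 (chr19:53529145-53541809), specific for ERK, had 0 and 0 normal and 5 and 6 tumor summits. Its 4 sites lay 20, 17364 and 28664 bp before the start and 15614 bp past the far end, and 3 of them had H3K27ac within 1 kb in both libraries. Dusp4 had 0 and 0 normal and 3 and 6 tumor summits, with a site 373 bp outside the gene at ranks of 14.0% and 13.9% and another 4438 bp inside. Dusp1 (chr17:26505591-26508472), which acts on p38, JNK and ERK, had 0 and 0 normal and 2 and 1 tumor summits. Its single site ranked at 11.4% and 10.2%, the strongest of this group in both lists. Dusp2, best known from lymphocytes, had 0 and 0 normal and 1 and 1 tumor summits, with a site 81 bp inside it whose ranks were 77.2% and 27.6%.

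Among the cytoplasmic ERK phosphatases, Dusp6 (chr10:99263231-99267489), a standard readout of ERK activity, had 0 and 1 normal and 2 and 4 tumor summits. Its sites lay 103 and 1518 bp before the start, at ranks of 22.8% and 16.4% for the nearer one. Dusp7 had 0 and 0 normal and 1 and 3 tumor summits and Dusp9 had 0 and 0 normal and 1 and 2 tumor summits. The Dusp7 site (739 bp outside the gene) and the Dusp9 site (25399 bp outside) had normal but no tumor H3K27ac within 1 kb, although a tumor summit lay 1090 bp from the Dusp7 site.

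The phosphatases of JNK and p38 held 8 sites. Dusp16 (chr6:134715468-134807063) had 0 and 0 normal and 7 and 7 tumor summits and 4 sites, all inside the gene. Its best site, at ranks of 26.7% and 11.2%, lay 14376 bp from the gene's outer end but 59 bp before the RefSeq start in the promoter table and 327 bp from a start of 1700055D16Rik. Dusp8 had 0 and 0 normal and 3 and 4 tumor summits, with sites at its start, 2157 bp outside that end and 8408 bp outside the other. Dusp10 had 0 and 0 normal and 2 and 5 tumor summits, and its single site, 17435 bp inside, had H3K27ac in neither library.

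Of the 14 atypical Dusp genes, 9 had a site (64.3%, beside 60.0% of all genes), 14 sites in all. Within 1 kb of the gene's start or end lay 10 of these sites, beside 38.2% of all gene-assigned sites. Dusp12 had 0 and 0 normal and 1 and 1 tumor summits, 191 bp inside the gene at ranks of 10.6% and 5.06%. Dusp11, an RNA phosphatase gene, had 0 and 0 normal and 2 and 3 tumor summits, with a site 5189 bp outside the gene at ranks of 5.30% and 17.4% and one 26 bp inside it at 25.0% and 9.73%. Dusp14 had 0 and 1 normal and 1 and 1 tumor summits. Dusp3, Dusp13, Dusp18, Dusp19, Dusp26 and Dusp28 had 1 or 2 sites each. Dusp22 had 2 and 1 and Dusp23 had 1 and 2 tumor summits, but neither had a site of both libraries. The best summits of Dusp23 ranked at 2.58% of tumor 1, the best of any member there, and at 4.65% of tumor 2. Dusp15 and Dusp27 had summits in tumor 2 only (1 and 2), and Dusp21 had none. Another protein-coding gene had its start or end within 1 kb of 3 member sites, those at Spry4, Dusp18 and the outer site of Dusp3. The Spred3 site lay inside Ggn, and RefSeq starts of other genes lay within 1 kb of sites at Errfi1, Dusp2, Dusp8 and Dusp16. All these sites cannot be assigned to 1 gene by position.

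Over all members, 24 of 58 sites (41.4%, Wilson 95% interval 29.6 to 54.2) lay within 1 kb of a gene start or end, against 38.2% of all 25076 gene-assigned sites. By gene, 23 of 34 (67.6%) had such a site, against 41.4% of all genes. Median ranks were 38.3% in tumor 1 and 23.9% in tumor 2, against 39.7% and 28.4% for all sites. Sites at gene starts or ends ranked higher than distal ones in both lists, with medians of 25.9% and 21.5% against 45.4% and 27.6%, and over all genes these medians were 20.5% and 14.6% against 50.8% and 37.4%. The 50 kb limit left out 8 sites nearest to a member at up to 100 kb. The farthest assigned site lay 44556 bp and the nearest unassigned one 55316 bp from its gene.

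**Figure D2:**
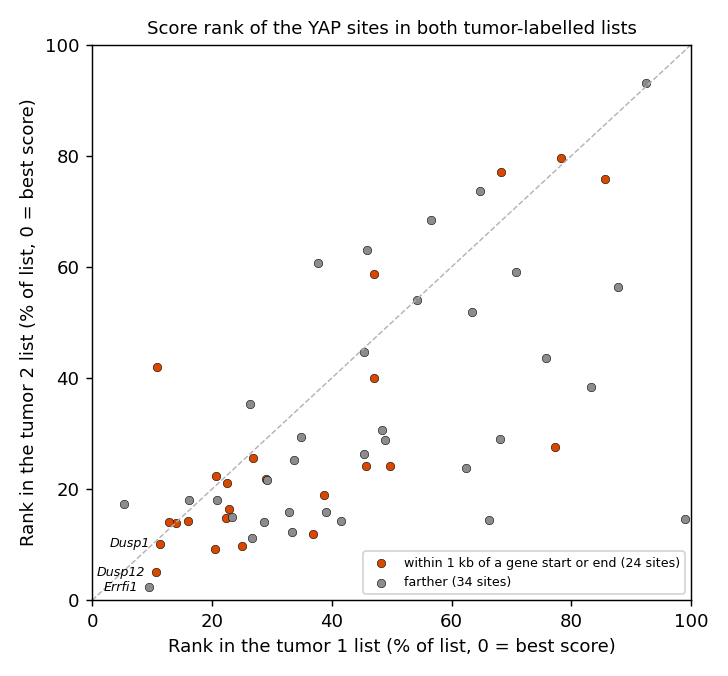
The 58 YAP sites by score rank in the tumor 1 list (horizontal) and the tumor 2 list (vertical), each as a percent of its list, with 0 the best score, and the dashed line marking equal rank. Orange points are the 24 sites within 1 kb of a gene start or end and grey points the 34 others: Errfi1, Dusp12 and Dusp1 lie nearest the origin, and most points fall under the line, where the rank is better in tumor 2.

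The comparison of YAP groups asked how much of this binding was detected in normal epithelium. At the members there were 0 YAP summits in normal 1, 3 in normal 2, 80 in tumor 1 and 114 in tumor 2. Both tumor libraries were above both normal libraries, with no overlap. Members with a summit numbered 0 in normal 1 (background 2.79%), 3 in normal 2 (background 5.98%), 30 in tumor 1 (background 66.3%) and 32 in tumor 2 (background 70.8%). Gene by gene, both tumor counts exceeded both normal counts at 29 of 34 members (85.3%, background 61.4%), the others being Dusp14, Dusp15, Dusp21, Dusp27 and Spry3. No member had a site of both normal libraries, against 0.950% of all genes. The log2 ratio of member summits, with 1 added to each count, was 5.59 in favour of tumor (exact two-sided permutation p = 0.333, the smallest that 2 against 2 libraries allow). The same ratio over all gene-assigned summits was 5.22 (exact permutation p = 0.333, n = 2 per group). With every list cut to its 1654 best summits the members' log2 ratio was 0.21 (exact permutation p = 1, n = 2 per group). With libraries put into groups by peak-name word instead of label it was 1.25 (exact permutation p = 0.667, n = 2 per group). The ratio was 4.59 if normal 1 was left out and 6.59 if normal 2 was left out.

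As a share of each list's gene-assigned summits, the members took 0% in normal 1, 0.201% in normal 2, 0.252% in tumor 1 and 0.257% in tumor 2. The Wilson upper bounds of the normal libraries, 0.564% and 0.590%, lay above both tumor values, so a difference in share was not detectable with lists this short. The mean difference was 0.154 points (0.254 ± 0.00362% against 0.101 ± 0.142%, SD, n = 2 each, exact permutation p = 0.333). Without normal 1 it was 0.0533 points and without normal 2 it was 0.254 points, and at equal list length it was -0.0213 points.

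The 3 summits of normal 2 at members were at Dusp6, Dusp14 and Spred1. That of Dusp14 had a score of 4.20 and lay 91 bp from the tumor site. That of Dusp6 had a score of 4.78 and lay 399 bp from the nearer tumor site. The Spred1 summit, with a score of 3.41, lay 96 bp from the gene's start and 23 bp from a tumor 2 summit that tumor 1 did not share within 200 bp. Of these 3, 2 (66.7%) were within 1 kb of a gene start or end, against 38.8% of the 80 summits in tumor 1 and 28.9% of the 114 in tumor 2. The difference of -32.8 points rests on those 3 normal summits (exact permutation p = 0.333 over the 3 libraries with a summit, the smallest possible). No summit of normal 1 came closer than 91.0 kb to a member site.

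**Figure D3:**
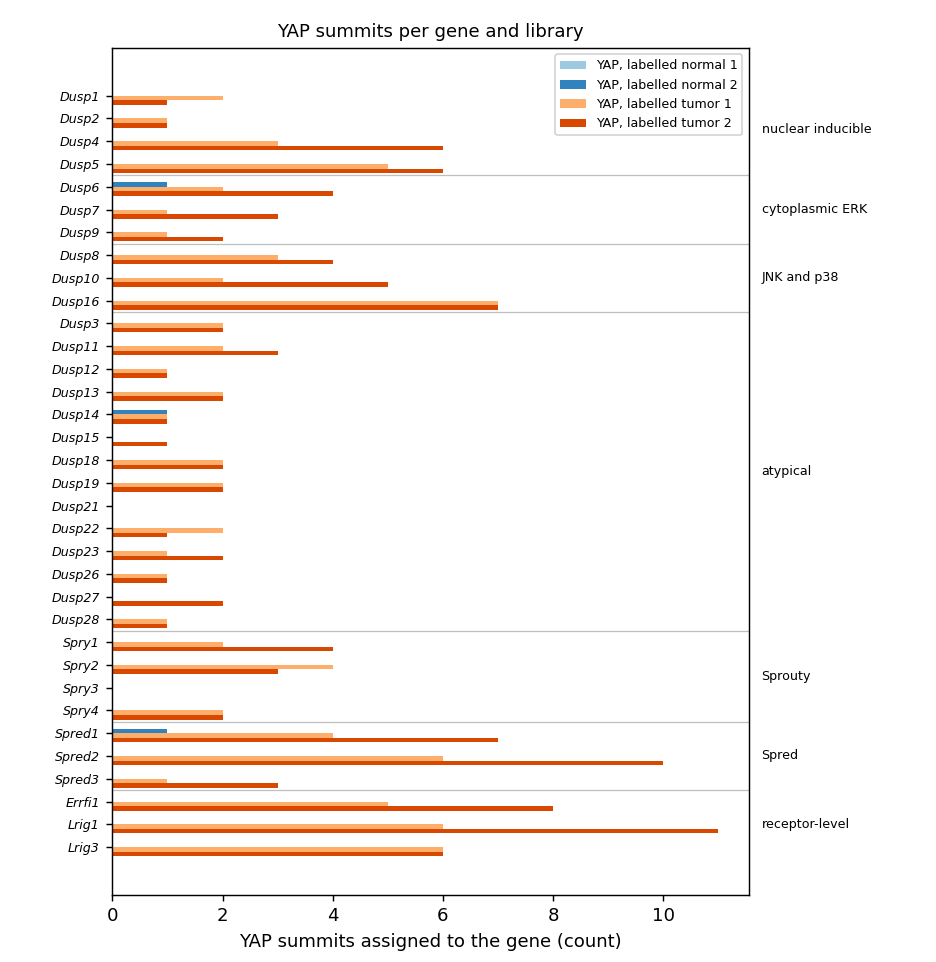
Bars give the number of YAP summits assigned to each of the 34 genes (rows, grouped by role) in the 4 YAP libraries, blue for those labelled normal and orange for those labelled tumor. Normal bars appear at Dusp6, Dusp14 and Spred1 alone, each at 1 summit from normal 2, and the longest tumor bars are those of Lrig1 (11) and Spred2 (10).

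H3K27ac at the YAP sites was next compared between the tissues. Of the 58 sites, 34 (58.6%, 45.8 to 70.4) had a tumor H3K27ac summit within 1 kb, against 56.7% of all gene-assigned sites, and 34 (not all of them the same sites) had a normal one, against 51.0%. The mark was present in both libraries at 30 sites (51.7%, all sites 44.9%) and in neither at 20 (34.5%, all sites 37.2%). It was present in tumor only at 4 sites (6.90%, all sites 11.8%) and in normal only at 4 (6.90%, all sites 6.09%). Tumor-only marking was seen at Dusp2, Dusp13, Dusp26 and Spred3, and normal-only marking at Dusp4, Dusp7, Dusp9 and Lrig1, at 1 site each. Genes with a tumor-only site were 4 of 34 (11.8%), against 11.7% of all genes. Sites at gene starts or ends had tumor H3K27ac in 20 of 24 cases (83.3%, all genes 92.0%) and farther sites in 14 of 34 (41.2%, all genes 34.8%). In the 20 marked sites at gene starts or ends, the YAP position and the nearest tumor H3K27ac summit were a median of 311 bp apart (44 to 980 bp), against 188 bp for all genes. In the 14 marked farther sites the median was 139 bp (4 to 786 bp), against 199 bp for all genes.

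H3K27ac summits at the members numbered 57 in the normal library, 100 in the full tumor list and 32 in the tumor list cut to the 22574 best-scored summits of the normal length. Each group has a single H3K27ac library, so these differences have no replicate check and no test. At equal length 16 of 34 genes had fewer summits in tumor, 0 had more, 9 had as many and 9 had none in either list. Over all genes 20.5% had fewer and 16.4% had more. Among the 25 members with a normal summit 16 had fewer (64.0%), against 37.8% of all such genes, and 0 had more, against 9.18%, but among those with 2 or more it was 14 of 18 (77.8%) against 74.9%.

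The median log2 ratio, tumor + 1 over normal + 1, was -0.42 over the 25 members with a summit and 0 over all such genes. With the full tumor list, 19 members had more summits (55.9%, background 58.1%), 13 of them by 2 or more (38.2%, background 34.3%), and 4 had fewer (11.8%, background 7.37%), at a median of 0.58 against 1 for all genes.

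Lrig1 had 6 normal, 5 full tumor and 1 equal-length tumor H3K27ac summits, the largest difference of any member at equal length. Errfi1 had 3, 9 and 1, more than normal in the full list and fewer at equal length. Dusp16 had 3, 4 and 1, Dusp1 had 3, 3 and 1, and Dusp9 had 2, 3 and 0. Spred1 had 3 normal summits and 1 in either tumor list, and it alone of the 34 had 2 or more fewer in the full list. These 6 genes, with 2 or more fewer summits at equal length, are 17.6% of the members, against 6.21% of all genes. Only genes with 2 or more normal summits could qualify, and among these it was 6 of 18 members, against 1359 of 4681 genes. For 2 or more further summits the count was 0 members (background 2.17%). Dusp6, Spry1 and Spry2 had as many in tumor at equal length as in normal (3, 2 and 3). Dusp10 had none assigned in either library, although summits lay 783 bp (normal) and 735 bp (tumor) from it, nearer to another gene.

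Summits of the normal H3K27ac list were then looked up in the tumor lists. All 27 normal H3K27ac summits within 1 kb of a member's start or end had a tumor summit within 1 kb (100%, 87.5 to 100, all genes 96.3%), and 25 of 27 (92.6%, all genes 92.0%) had one in the equal-length list. Of the 30 farther summits, 18 (60.0%, 42.3 to 75.4) had a partner in the full list (all genes 65.8%) and 11 (36.7%, 21.9 to 54.5) in the equal-length list (all genes 44.7%). In the other direction, 60 of 100 tumor summits had no normal summit within 1 kb (all genes 69.8%), 7 of them at Errfi1 and 6 at Dusp7. YAP sites lay within 1 kb of 6 of these 60 (all genes 9.10%) and of 30 of the 40 shared summits (75.0%, all genes 77.5%).

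**Figure D4:**
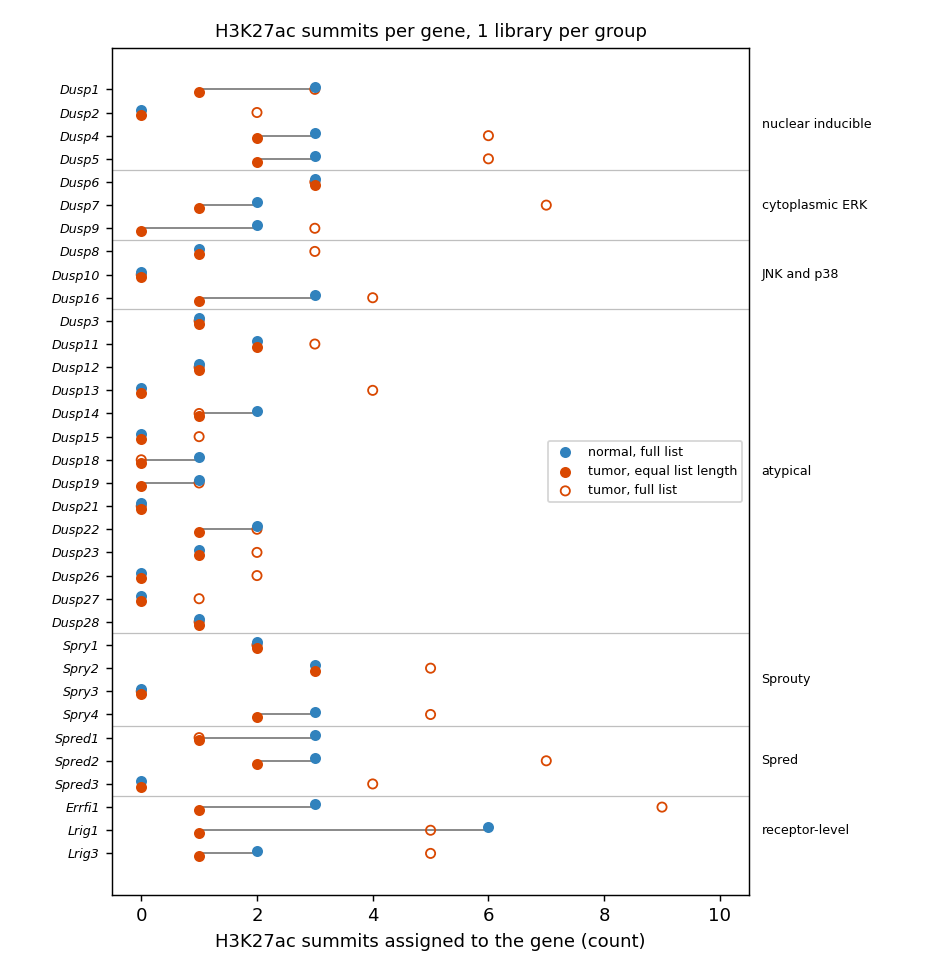
H3K27ac summits per gene (rows, grouped by role) in the normal library (blue), in the tumor list at equal length (filled orange) and in the full tumor list (open orange), with 1 library per group and a line joining the first pair. Filled orange points lie left of or level with the blue ones at all 34 genes, while open points reach 9 at Errfi1 and 7 at Dusp7 and Spred2.

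The rest of the pathway was read from a list of 54 genes. Of these, 51 (94.4%) had a YAP site of both tumor libraries, 137 sites in all, against 60.0% of all genes. Among all genes with H3K27ac within 1 kb of their start or end in either library the share was 76.2%. The feedback genes stood at 82.4%, and these differences were not tested. A site of both normal libraries was found at 1 pathway gene (Sos2), against 0.950% of all genes. Receptors had a site at 8 of 9 genes (Egfr 5 sites), with none at Met. Adaptors and exchange factors had one at 8 of 8 (Gab1 6, Grb2 5, Sos1 4), Ras and its regulators at 6 of 6, and Raf and scaffolds at 4 of 4 (Ksr1 6). The MAP2K group had one at 6 of 6 (Map2k6 9, Map2k4 5, Map2k3 4), the MAP kinases at 8 of 10 (Mapk3 and Mapk13 3 each), with none at Mapk11 and Mapk14, and the effectors at 11 of 11 (Fos 9, Elk3 6, Rps6ka1 5). Met, Mapk11, Mapk14 and Sos2 are named after their values were seen. At equal list length 22 of the 54 (40.7%) had fewer H3K27ac summits in tumor, against 20.5% of all genes, and 2 (3.70%) had more, against 16.4%. Of the 52 with a normal summit the 22 are 42.3%, against 37.8% of all such genes. The 2 genes with more were Elk3 and Mapk11, and Mapk11 had no normal summit. Of all genes with a normal summit 9.18% had more.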

How the data were processed

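The 6 libraries, 2 H3K27ac and 4 YAP, each had 1 deposited list of peak summits, called per sample. Per the submitters' processing notes, Bowtie2, MACS2 and the build GRCm38 (mm10) were used. Their versions, the threshold and any control library are not stated in the sources at hand. The score is the authors' −log10 p-value or −log10 q-value, without a statement of which, and served only to rank or filter summits inside 1 list. Depth is unknown and changes how many summits are called, which is why lists cut to the same length were compared too. Wilson intervals (95%) cover counting error only.

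Summits on the 19 autosomes, X and Y were assigned to a RefSeq gene table of the same build, which gives no exons. Python 3.11.15, numpy 2.4.6, pandas 2.3.3, scipy 1.17.1 and matplotlib 3.10.9 were used, and the assignment, matching and permutation code was tested on simulated data. YAP summits of 2 libraries were paired one to one within 200 bp, closest first, and H3K27ac was counted within 1 kb. YAP groups were compared by exact permutation. Other score minimums, distances, assignment rules, list lengths, groupings and left-out libraries were tried as alternatives.

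Members, roles, the pathway and marker lists, tests and alternatives were chosen with earlier results of these data known. Full values were given for members with 3 or more tumor sites, a site of both normal libraries, a site within 1 kb of their start or end in the best 10% of both tumor lists, or a H3K27ac difference of 2 or more summits at equal length. Of the pathway, up to 3 genes per step with the most sites were named. Single sites of other members, the backgrounds limited to genes with H3K27ac, the CArG box and TGACGTCA were chosen after values or sequences were seen. Labels, not peak-name words, set the groups.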

Additional observations from a re-analysis of the deposited data

How the results depend on the processing

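The number of members with a YAP site of both tumor libraries stayed between 19 (score of at least 10) and 32 over all 10 alternatives, 28 as reported. It was 32 and 30 with tumor 2 or tumor 1 alone, beside 70.8% and 66.3% of all genes. For the other alternatives no share over all genes was computed. The number with a site of both normal libraries was 0 under each alternative that kept both libraries, and ranged from 0 to 3 when 1 library was left out. The log2 ratio of member YAP summits was 4.59 to 6.59 with 1 library left out. The difference in the members' share of summits was 0.0533 to 0.254 points with 1 library left out and turned to -0.0213 at equal list length. Over 16208 genes the difference between replicates 1 and 2 in tumor and in normal correlated at r = -0.0031. Only 2.79% and 5.98% of all genes had a summit in normal 1 and normal 2, so most normal differences are 0. The correlation therefore cannot show whether libraries are paired by equal replicate numbers. Taking differences within these numbers, a replicate block, left the log2 ratio at 5.59 and the share difference at 0.154 (exact sign-flip p = 0.5, n = 2 pairs, for each); no block could be made for the share near gene starts or ends, because normal 1 had no member summit. That share's difference turned to 9.06 points under grouping by peak-name word, was -2.81 with priority for the gene that contains a summit and 0 at equal list length, ran from -37.7 to -27.9 with 1 library left out, and could not be computed at a score of at least 5 or 10, which left no normal summit at a member.

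For H3K27ac, the full tumor list gave 4 members with fewer and 19 with more summits and a median log2 ratio of 0.58. Over all genes 7.37% had fewer and 58.1% had more, at a median of 1. The longer list itself raises counts. Members with more summits numbered 2 within 10 kb, 1 within 100 kb and 1 at a score of at least 5, and the median log2 ratio was -0.21, -0.58 and -0.58 there. The share of member YAP sites with tumor H3K27ac was 58.6% as reported, against 56.7% of all sites. It was 41.4% against 44.0% with the tumor H3K27ac list at the normal length. With tumor 2 alone it was 42.1% against 46.6%, and with tumor 1 alone 53.8% against 55.5%. At a score of at least 5 it was 57.4% against 62.8%. With H3K27ac counted at a shorter distance it was 50.0% against 50.4%, and at a longer one 63.8% against 61.9%. The members thus stood above all sites only as reported and at the longer distance, and no difference was tested. The cause of these moves was not tested. Unknown depth limits every count of 0 in the normal YAP lists, and 1 H3K27ac library per group leaves those differences without a replicate check.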

Other observations

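Looked for after the sequences were seen, the full letters TGACGTCA were present in 3 of the 30 member promoters, those of Dusp1, Dusp8 and Errfi1, and in 1.79% of all 32851 promoters. All 3 had a YAP site in or within 250 bp, and among all promoters the share was 3.67% with such a site and 0.934% without one. CArG boxes, also looked for then, were present in 1 of 30 member promoters, that of Dusp5, where they lay 47 and 57 bases from the YAP site, and in 1.63% of all promoters.

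Over all promoters, with against without a YAP site in or within 250 bp, GGAATG was present in 11.2% against 16.2%, TGANTCA in 4.74% against 9.20%, TGACGT in 12.9% against 5.08% and CGGAAGT in 15.2% against 2.41%. These shares are descriptions with no test, and base composition was not taken into account.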
